A study of Rattus norvegicus with 40 samples.

Results

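Transcript levels of 6 genes of glucose uptake and glycolysis were followed in aged rat skeletal muscle. The genes were chosen by name for some steps of the route from blood glucose to lactate, and not every step is covered. The rule of choice holds no measured value, although earlier results of these data were known when it was written. The genes make up 6 of the 32545 gene rows of the count table. In the order of the route they are Slc2a4 (ENSRNOG00000017226), Hk2 (ENSRNOG00000006116), Gapdh (ENSRNOG00000018630), Pkm (ENSRNOG00000011329), Ldha (ENSRNOG00000013009) and Ldhb (ENSRNOG00000013000). All 6 passed the filter on low counts in every comparison.

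Poly(A) RNA was sequenced from gastrocnemius, a calf muscle, and from triceps of male Wistar rats aged 20 or 22 months. Each age was represented by 10 animals, and both muscles came from the same animal, which gave 4 groups of 10 libraries and 40 libraries in all. No transgene, diet or drug is named for any group, so age and muscle are the only labelled differences, and the animals of each age are different individuals. Totals of reads counted over genes ran from 10983887 to 68580194 per library, and the lowest count of any of the 6 genes was 92 reads, of Ldhb in a triceps library.

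Skeletal muscle takes up glucose mainly through GLUT4, the insulin- and contraction-responsive transporter encoded by Slc2a4, and hexokinase II, encoded by Hk2, traps it in the fibre as glucose 6-phosphate. Glyceraldehyde-3-phosphate dehydrogenase (Gapdh) then carries out the NAD-dependent oxidation in the middle of glycolysis, and pyruvate kinase (Pkm) makes pyruvate in its last step. Lactate dehydrogenase is a tetramer of subunits made by Ldha and Ldhb: the A subunit prevails in fast glycolytic fibres, where pyruvate is reduced to lactate, and the B subunit in the heart and in slow oxidative fibres, where lactate is used as fuel. The relative abundance of both transcripts is therefore a common index of where a muscle lies between these types.

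The 250 bases before the annotated start are shown for Ldha and Ldhb, whose levels diverged between muscles, and for Gapdh and Pkm, whose levels followed Ldha between animals. The sequences are from RefSeq on the GRCr8 assembly, which is not the build on which the reads were counted, and are written 5′ to 3′ on the strand of the gene. Capitals mark the core of a hypoxia-response element, ACGTG, on either strand.
Ldha, chr1:106507842-106508091, plus strand: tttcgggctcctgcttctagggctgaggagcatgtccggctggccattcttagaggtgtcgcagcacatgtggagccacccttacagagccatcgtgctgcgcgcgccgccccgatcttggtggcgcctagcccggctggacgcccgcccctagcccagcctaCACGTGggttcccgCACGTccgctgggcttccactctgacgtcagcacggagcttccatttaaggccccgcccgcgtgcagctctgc
Ldhb, chr4:177177409-177177658, minus strand: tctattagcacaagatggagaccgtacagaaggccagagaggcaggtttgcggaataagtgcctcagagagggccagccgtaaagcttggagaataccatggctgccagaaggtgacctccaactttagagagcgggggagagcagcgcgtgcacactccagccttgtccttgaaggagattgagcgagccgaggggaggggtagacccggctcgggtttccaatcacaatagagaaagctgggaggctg
Gapdh, chr4:159652468-159652717, minus strand: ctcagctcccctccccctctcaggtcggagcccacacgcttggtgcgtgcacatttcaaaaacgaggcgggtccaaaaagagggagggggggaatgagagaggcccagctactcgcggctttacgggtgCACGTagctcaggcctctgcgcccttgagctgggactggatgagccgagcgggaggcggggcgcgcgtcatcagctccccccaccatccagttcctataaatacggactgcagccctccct
Pkm, chr8:68953385-68953634, plus strand: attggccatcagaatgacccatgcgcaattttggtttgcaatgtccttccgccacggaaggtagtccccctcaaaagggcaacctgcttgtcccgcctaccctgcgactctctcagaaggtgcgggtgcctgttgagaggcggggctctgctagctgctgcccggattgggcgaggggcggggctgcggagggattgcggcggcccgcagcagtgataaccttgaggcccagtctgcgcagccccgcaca
The Ldha window held 3 matches to ACGTG, of which the first 2 overlap because CACGTG reads the same on both strands, and the third lay 73 to 69 bases before the start. The Gapdh window held 1 match, and the Ldhb and Pkm windows held none. ACGTG was present in 16.6% of the 33469 promoter windows of this length. GC boxes (GGGCGG on either strand) numbered 3 in the Ldha window and 1 in the Pkm window, and were present in 30.5% of all windows. A TATA box, TATAAA, lay 26 to 21 bases before the Gapdh start, and 12.9% of all windows held one. These matches describe the letters of the windows, and binding was not measured.

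Values are given in CPM, the reads of a gene per 1000000 reads counted in its library, after edgeR's TMM scaling for differences in library composition. They were not corrected for transcript length, so levels are compared between libraries for 1 gene and not between genes. In bulk tissue, fewer cells or fibres of a type and less RNA per cell cannot be told apart, and this holds for every difference below.

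Slc2a4, the uptake gene, was lower in gastrocnemius than in triceps. At 20 months its level in gastrocnemius ranged from 465 to 827 CPM with a median of 555 CPM. In triceps of the same animals it ranged from 601 to 959 CPM with a median of 787 CPM. The groups overlapped through 4 gastrocnemius libraries, and gastrocnemius was the lower muscle in 9 of 10 animals. At 22 months gastrocnemius ranged from 345 to 686 CPM (median 528 CPM) and triceps from 678 to 970 CPM (median 767 CPM). All but 1 of the gastrocnemius libraries then lay below the lowest triceps library, and gastrocnemius was lower in 10 of 10 animals. The log2 fold change of gastrocnemius over triceps was -0.36 ± 0.12 (SE) at 20 months and -0.61 ± 0.11 at 22 months. In edgeR's quasi-likelihood test with Benjamini-Hochberg adjustment over all genes, the 20-month difference had an adjusted p of 0.0521 and the 22-month difference an adjusted p of 0.000245. With a threshold of 0.01, only the latter passed, and it passed in every one of the 10 fits that left out 1 animal.

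Hk2, the gene of the trapping step, was also lower in gastrocnemius in most animals at both ages. At 20 months it ranged from 60.3 to 159 CPM (median 96.9 CPM) in gastrocnemius and from 93.4 to 231 CPM (median 128 CPM) in triceps. At 22 months it ranged from 66.1 to 117 CPM (median 92.8 CPM) and from 98.4 to 213 CPM (median 114 CPM). The groups overlapped at each age, with gastrocnemius lower in 9 of 10 animals at 20 months and in 9 of 10 at 22 months. The log2 fold changes were -0.63 ± 0.18 and -0.48 ± 0.14, with edgeR adjusted p of 0.0299 and 0.0107, so neither passed. With the animal as a block, that is, comparing both muscles within each animal, both passed (log2 fold change -0.60, adjusted p = 0.0094 at 20 months, and -0.46, adjusted p = 0.00385 at 22 months, edgeR). Scaling by library totals instead of TMM, without the block, weakened both. The difference was then -0.57 (edgeR adjusted p = 0.0725) at 20 months and -0.30 (edgeR adjusted p = 0.0856) at 22 months. Replicates 7 and 10 at 20 months, described below, were also left out, a choice made after the data were seen. With TMM and no block, the 20-month difference was then -0.48 with an edgeR adjusted p of 0.11.

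Gapdh, the middle step, gave a similar picture with a wider spread. Gapdh, Ldha and Pkm have many pseudogene copies in the rat genome, and how reads shared with copies were counted is not stated, so the levels of these genes are uncertain to that extent. At 20 months it ranged from 116 to 253 CPM (median 201 CPM) in gastrocnemius and from 129 to 408 CPM (median 283 CPM) in triceps. At 22 months the range was 60.7 to 285 CPM (median 129 CPM) in gastrocnemius and 175 to 279 CPM (median 230 CPM) in triceps. The highest gastrocnemius library at 22 months, replicate 5, exceeded every triceps library of that age, while the 5 lowest lay under 100 CPM. Gastrocnemius was lower in 9 of 10 animals at each age. The log2 fold changes were -0.62 ± 0.18 (edgeR adjusted p = 0.0288) at 20 months and -0.72 ± 0.22 (0.0168) at 22 months, which did not pass. The 22-month difference passed with the animal as a block (-0.88, edgeR adjusted p = 0.00635). The 20-month difference passed without replicates 7 and 10, again left out after the data were seen (-0.72, edgeR adjusted p = 0.00387).

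Pkm, which makes pyruvate, ranged from 525 to 1253 CPM (median 904 CPM) in gastrocnemius and from 496 to 1408 CPM (median 1176 CPM) in triceps at 20 months. The lowest value of that age was thus a triceps library, replicate 7, and gastrocnemius was lower in 7 of 10 animals. At 22 months gastrocnemius ranged from 249 to 1254 CPM (median 620 CPM) while triceps lay between 929 and 1348 CPM (median 1137 CPM). The spread in gastrocnemius was 5.05-fold from lowest to highest against 1.45-fold in triceps, and 8 of 10 gastrocnemius libraries lay below every triceps library. The log2 fold change was -0.36 ± 0.19 at 20 months (edgeR adjusted p = 0.235) and -0.77 ± 0.22 at 22 months (edgeR adjusted p = 0.00945). The second lay just inside the threshold and was lost in 7 of the 10 fits that left out 1 animal, where the adjusted p reached 0.034.

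Ldha, the subunit gene of fast fibres, ranged from 859 to 1743 CPM (median 1434 CPM) in gastrocnemius and from 899 to 2335 CPM (median 1766 CPM) in triceps at 20 months. Gastrocnemius was lower in 9 of 10 animals but only 2 of its libraries lay below the lowest triceps library. At 22 months it ranged from 444 to 1617 CPM (median 964 CPM) in gastrocnemius and from 1432 to 2016 CPM (median 1689 CPM) in triceps. All gastrocnemius libraries but replicate 5 then lay below every triceps library, and gastrocnemius was lower in 10 of 10 animals. The log2 fold change was -0.38 ± 0.16 at 20 months (edgeR adjusted p = 0.136) and -0.77 ± 0.18 at 22 months (edgeR adjusted p = 0.00258). Leaving out replicate 1 took the 22-month adjusted p to 0.0108.

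Ldhb, the subunit gene of slow fibres and heart, had the opposite direction and the widest relative spread of the 6 genes (SD over mean) in each of the 4 groups, though in gastrocnemius at 22 months Gapdh and Pkm came close to it. At 20 months gastrocnemius ranged from 36.8 to 593 CPM (median 270 CPM) and triceps from 10.2 to 631 CPM (median 43.5 CPM). Gastrocnemius fell into separate clusters, with replicates 8, 9 and 10 at 36.8, 37.6 and 42.9 CPM and the other 7 libraries at 233 CPM or more. In triceps, replicates 7 and 10 stood at 407 and 631 CPM and replicate 1 at 164 CPM, while the other 7 were at or below 58.1 CPM. At 22 months gastrocnemius ranged from 51.8 to 385 CPM (median 205 CPM) and triceps from 6.06 to 163 CPM (median 30.8 CPM). Here 6 gastrocnemius libraries exceeded every triceps library, and all 10 exceeded the triceps median. The muscle with more Ldhb was gastrocnemius in 8 of 10 animals at 20 months and in 9 of 10 at 22 months, with median within-animal ratios of 5.44 and 5.83. The log2 fold change was 0.84 ± 0.70 at 20 months (edgeR adjusted p = 0.496) and 2.03 ± 0.50 at 22 months (edgeR adjusted p = 0.00329). The 22-month call was lost without replicate 1 or replicate 9, where the adjusted p reached 0.0131, and in a single fit over all 40 libraries (adjusted p = 0.0144). With the animal as a block, the 20-month difference was 1.85 ± 0.68 and did not pass (edgeR adjusted p = 0.0908). With no block and without replicates 7 and 10, it was 2.51 (edgeR adjusted p = 0.0113). Those 2 were left out after the data were seen and had the highest triceps Ldhb, so a larger difference follows from that choice.

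**Figure D1:**
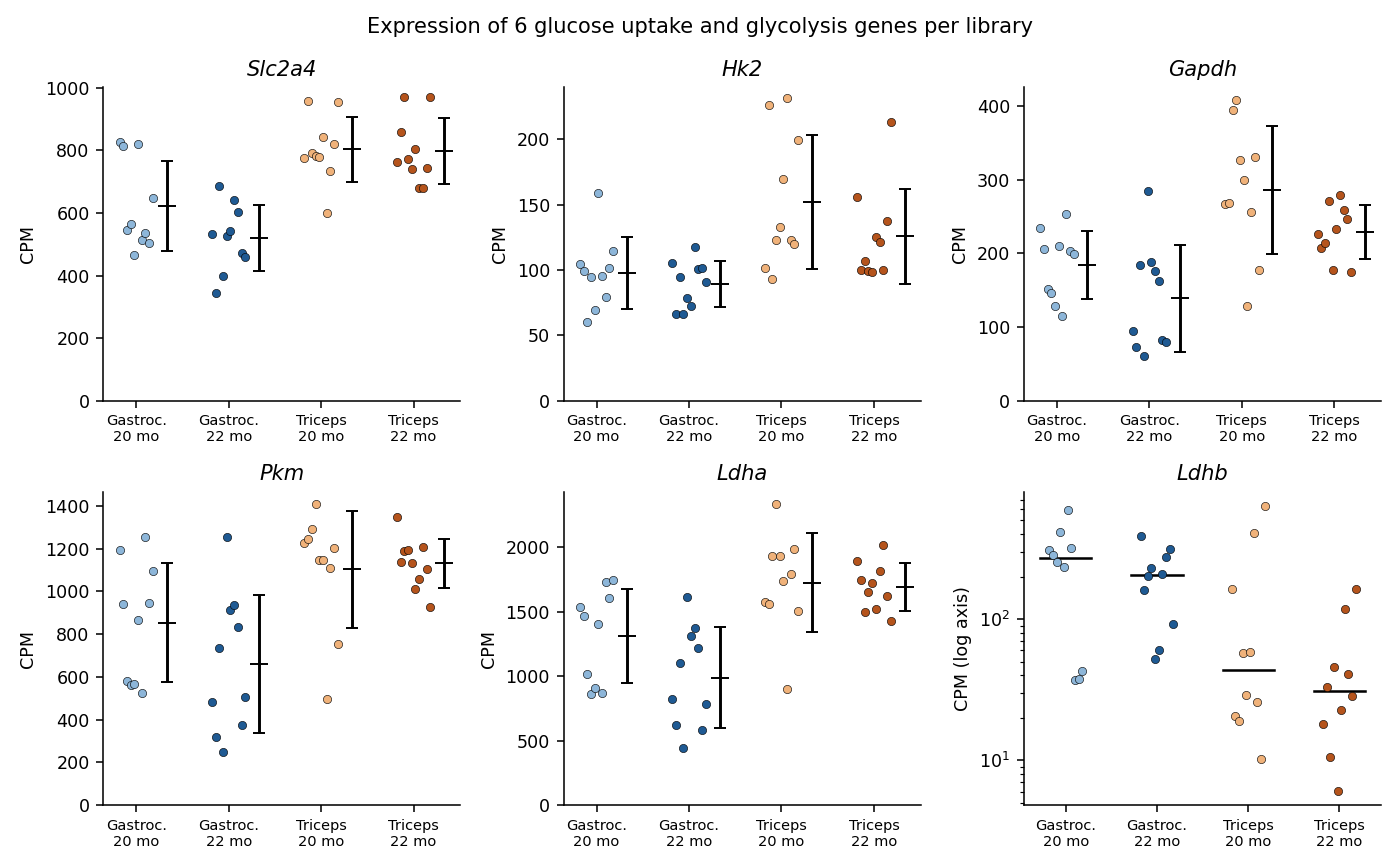
Level of each gene in every library, in CPM, for gastrocnemius and triceps at 20 and 22 months (10 libraries a group). Points are libraries, and bars beside them are the mean ± SD. For Ldhb the axis is logarithmic and lines are medians, and the low cluster of 3 gastrocnemius libraries and the 2 high triceps libraries at 20 months can be seen.

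Across the 6 genes, 0 were called between muscles at 20 months, where 3.76% of 12426 tested genes were called in either direction (467 genes, 2.39% higher and 1.37% lower in gastrocnemius). By DESeq2 2 of the 6, Hk2 and Gapdh, were called at this age, among 878 genes in all, and by limma-voom 0, among 431. In edgeR 4 of the 6 had an unadjusted p below 0.05, as did 24.9% of all tested genes. At 22 months 4 of 6 were called: Ldhb higher, where the share of all 12565 genes called higher was 10.5%, and Slc2a4, Pkm and Ldha lower, where the share called lower was 9.82% (20.3% in either direction, 2552 genes). The median log2 fold change of the 6 genes was -0.37 at 20 months and -0.66 at 22 months, against a median of 0.00 and 0.01 over all tested genes. Members' absolute fold changes were at or above the 84.2nd percentile of all genes at 20 months and the 82.4th at 22 months, and those of Ldhb were at the 96.9th and 99.1st. Scaling by library totals instead of TMM moved the median of all genes to 0.11 at 20 months and to 0.20 at 22 months, and kept the direction of all 6 members at both ages. With that scaling the 22-month calls over all genes were 2830 higher and 635 lower, against 1318 and 1234 with TMM. The same 6 genes thus pointed the same way at both ages, and whether the differences changed between ages was tested separately below.

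**Figure D2:**
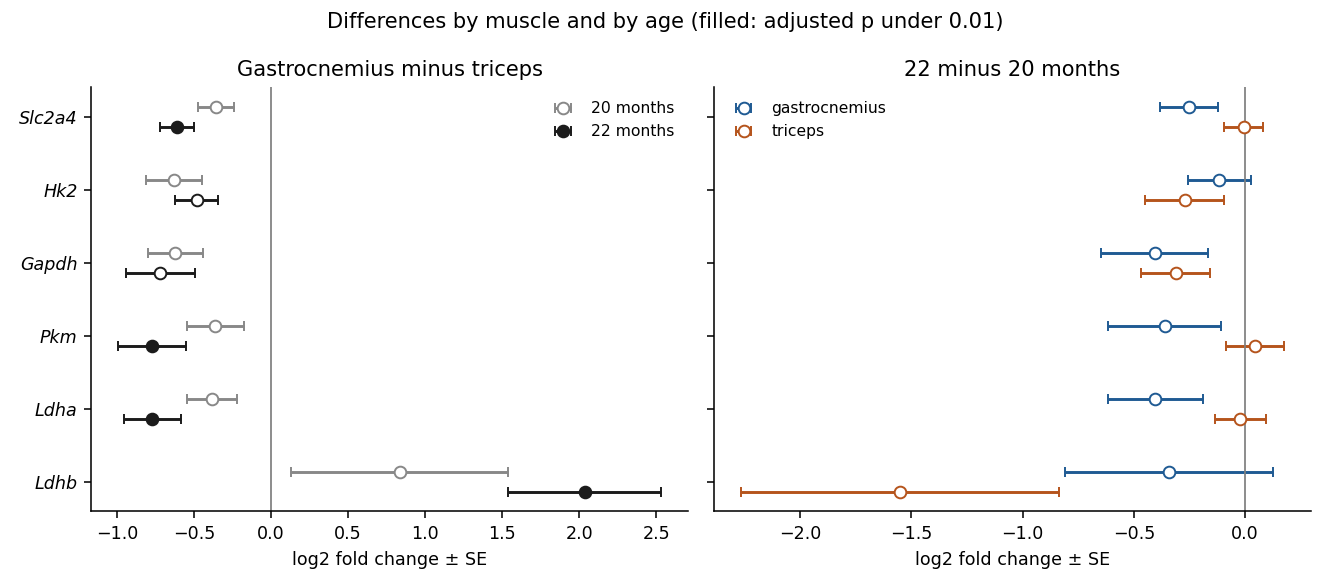
log2 fold change ± SE of each gene by muscle (gastrocnemius minus triceps, at 20 and 22 months) and by age (22 minus 20 months, in each muscle), from edgeR. Filled points passed an adjusted p of 0.01: Slc2a4, Pkm, Ldha and Ldhb between muscles at 22 months.

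The ratio of Ldha to Ldhb reads combines both subunit genes within a library, so the scaling between libraries cancels. It is a ratio of reads and not of molecules, since the transcripts' lengths were not used. At 20 months it ranged from 2.06 to 47.0 (median 4.52) in gastrocnemius and from 2.21 to 195 (median 53.4) in triceps. At 22 months it ranged from 1.84 to 31.2 (median 4.95) in gastrocnemius and from 8.80 to 284 (median 54.8) in triceps. The ratio was under 10 in 7 and 8 of 10 gastrocnemius libraries at 20 and 22 months, and in 3 and 1 of 10 triceps libraries. Ratios over 50 were found in 5 and 6 triceps libraries and in no gastrocnemius library. Expressed as a share, Ldhb supplied a median of 18.3% and 16.9% of the reads of both genes in gastrocnemius and 1.95% and 1.79% in triceps.

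Within animals, gastrocnemius had the lower ratio in 8 of 10 animals at 20 months and in 10 of 10 at 22 months. The 2 exceptions were replicate 7, with 2.73 in gastrocnemius and 2.21 in triceps, and replicate 10, with 40.7 and 2.39. The mean log2 ratio was 2.87 ± 1.82 (SD, n = 10) in gastrocnemius and 4.86 ± 2.24 in triceps at 20 months, a difference of -1.99 ± 0.91 (SE). At 22 months it was 2.47 ± 1.40 and 5.75 ± 1.46, a difference of -3.28 ± 0.64, which is a 9.69-fold lower ratio in gastrocnemius. Two-sided permutation tests with 100000 resamples gave p = 0.0449 at 20 months and p = 0.00028 at 22 months, or 0.112 and 0.0014 after Benjamini-Hochberg adjustment over the 5 tests of the ratio. The 20-month difference thus failed and the 22-month difference passed at 0.05. Without replicate 10 the 20-month difference was -2.66 with a permutation adjusted p of 0.0232. Without replicates 7 and 10 it was -3.03, with a permutation adjusted p of 0.00622. These 2 were left out after the data were seen and are the exceptions above, so a smaller p follows from that choice. Comparing both muscles within all 10 animals, a sign-flip permutation test gave an adjusted p of 0.127 at 20 months.

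**Figure D3:**
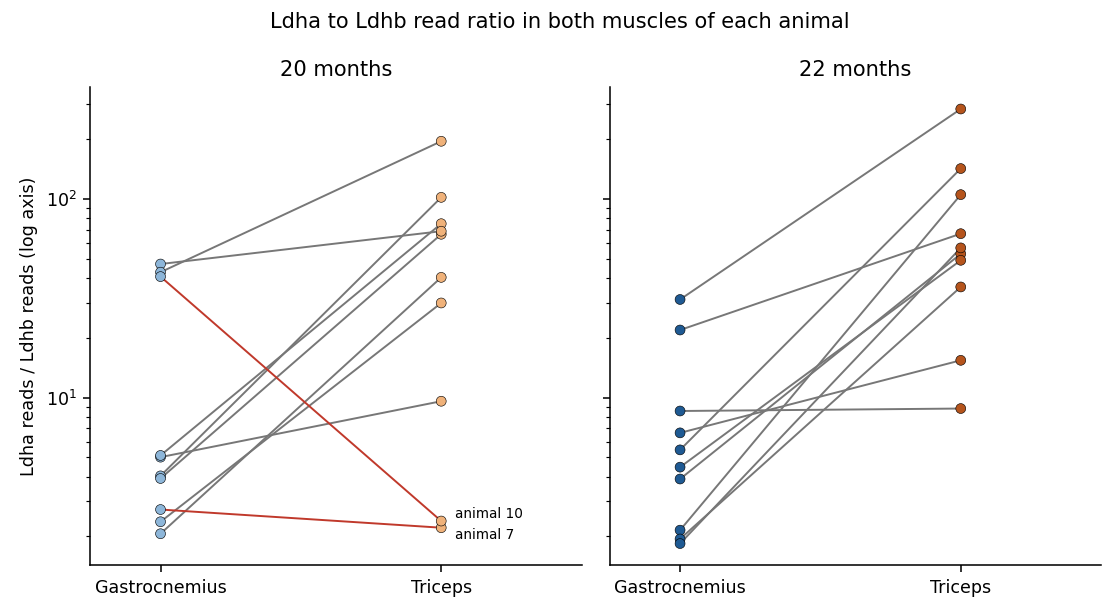
Ratio of Ldha to Ldhb reads (log axis) in gastrocnemius and triceps of each animal at 20 and 22 months. Lines join both muscles of an animal, and red lines mark replicates 7 and 10 at 20 months, the 2 animals whose triceps had the lower ratio.

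The triceps libraries of replicates 7 and 10 at 20 months were also among the lowest or highest of their group in several other genes. Replicate 7 had the lowest triceps values of that age for Slc2a4 (601 CPM), Gapdh (129 CPM), Pkm (496 CPM) and Ldha (899 CPM), and the highest for Hk2 (231 CPM). Replicate 10 had the second lowest Gapdh (178 CPM), Pkm (755 CPM) and Ldha (1507 CPM) of the group, but a Slc2a4 level of 956 CPM near its top. As a reading of the labels, a gene (ENSRNOG00000026087, singled out after its values were seen) was looked up at 20 months. It had the largest fold change in favour of gastrocnemius among genes called at 22 months. Only genes that averaged at least 5 CPM over all 40 libraries were eligible. The 20-month libraries thus entered its choice through that average, so the look-up is not independent of the choice. At 20 months this gene was higher in gastrocnemius than in triceps in 10 of 10 animals, with 96.1 against 2.48 CPM in replicate 7 and 49.5 against 0.293 CPM in replicate 10. The muscles overlapped, since the 2.48 CPM of replicate 7 was the highest triceps value and lay above the lowest gastrocnemius value of 2.36 CPM. This is a single gene, and whether any label was exchanged was not tested further. What else differed in these libraries was not tested.

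The second question was whether the genes changed from 20 to 22 months. In gastrocnemius all 6 log2 fold changes were below 0, from -0.12 ± 0.14 for Hk2 to -0.41 ± 0.24 for Gapdh, with -0.25 ± 0.13 for Slc2a4, -0.36 ± 0.26 for Pkm, -0.40 ± 0.21 for Ldha and -0.34 ± 0.47 for Ldhb. None passed, with edgeR adjusted p between 0.505 and 0.80, and the groups overlapped for every gene. The 95% interval of the Ldha change reached from -0.82 to 0.01 and that of the Ldhb change from -1.26 to 0.58, so both intervals include falls of considerable size as well as no change. Over all 12659 genes 0 passed (0% called), 1308 had an unadjusted p below 0.05, DESeq2 called 1 gene and limma-voom 0.

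In triceps the differences with age were nearer to 0 for most members. They were -0.01 ± 0.09 for Slc2a4, 0.04 ± 0.13 for Pkm and -0.02 ± 0.12 for Ldha, and the sign of each of these turned in some fits that left out 1 library. The intervals were narrow, from -0.18 to 0.17 for Slc2a4 and from -0.25 to 0.20 for Ldha. Hk2 differed by -0.27 ± 0.18 and Gapdh by -0.31 ± 0.16, with edgeR adjusted p of 0.684 and 0.577. Without replicates 7 and 10 at 20 months these were -0.11 ± 0.17 and -0.47 ± 0.11, with edgeR adjusted p of 0.841 and 0.489 (unadjusted p = 0.000305 for Gapdh). Ldhb differed by -1.55 ± 0.71 (edgeR unadjusted p = 0.0403, adjusted p = 0.551), and without the same replicates by 0.02 ± 0.56. That alternative also moved Ldha to -0.12 ± 0.08 and Pkm to -0.10 ± 0.07. The Ldhb medians in triceps, 43.5 and 30.8 CPM, lay close to each other compared with the spread between animals. Over all 12345 genes edgeR called 0 (0%), with 1084 at an unadjusted p below 0.05, and DESeq2 and limma-voom called 0 each.

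The difference between both age effects, which equals the change of the muscle difference with age, was tested over all 40 libraries with no term for the animal. It was -0.25 ± 0.16 for Slc2a4, 0.15 ± 0.24 for Hk2, -0.09 ± 0.30 for Gapdh, -0.41 ± 0.30 for Pkm, -0.38 ± 0.25 for Ldha and 1.19 ± 0.89 for Ldhb, and for Ldhb -0.46 ± 0.78 without replicates 7 and 10 at 20 months. Every adjusted p was 0.999 in edgeR. With the animal as a block, which respects the pairing of muscles, the difference was -0.24 ± 0.15 for Slc2a4, 0.14 ± 0.17 for Hk2 and -0.29 ± 0.30 for Gapdh. It was -0.55 ± 0.30 for Pkm, -0.47 ± 0.25 for Ldha and 0.59 ± 0.84 for Ldhb. The edgeR adjusted p with the block lay between 0.932 and 0.97. The calls at 22 months and their lack at 20 months are thus not shown to differ. Over all 12980 genes edgeR called 0 (0%), with 389 at an unadjusted p below 0.05, and DESeq2 and limma-voom called 0 each. For the log2 ratio of Ldha to Ldhb the age effect was -0.40 in gastrocnemius (permutation p = 0.587), 0.89 in triceps (p = 0.304) and -1.29 for the difference (p = 0.238), with permutation adjusted p of 0.587, 0.380 and 0.380. The muscle and age comparisons share libraries and are not independent of each other.

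Animals of 1 group differed most in Ldhb. Its coefficient of variation (SD over mean) was 70.9% and 55.6% in gastrocnemius at 20 and 22 months and 148% and 105% in triceps, against medians over all genes of 18.6%, 18.1%, 18.5% and 17.0%. This placed Ldhb between the 96.7th and the 99.6th percentile of all 12980 genes, depending on the group. Slc2a4 lay between 12.9% and 23.1% and Hk2 between 19.8% and 33.6%. Gapdh, Pkm and Ldha were variable in gastrocnemius at 22 months, at 52.1%, 49.1% and 39.6%, and steady in triceps of that age, at 15.8%, 10.2% and 10.9%. The difference in spread was not tested.

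Gapdh, Pkm and Ldha varied together between animals. Over the 20 gastrocnemius libraries, with the mean of each age removed, Pearson's r of log2 CPM was 0.984 for Pkm and Ldha, 0.958 for Gapdh and Pkm and 0.940 for Gapdh and Ldha, with Spearman's rho of 0.973, 0.920 and 0.868. The r within each age lay between 0.929 and 0.992, and without the 2 libraries farthest from the median between 0.920 and 0.980. Each of these r had a permutation p of 1e-05, the smallest that 100000 resamples can give, and an adjusted p of 7.5e-05 over the 30 relations computed. In triceps the same 3 pairs gave r of 0.859, 0.849 and 0.849 (rho 0.642, 0.612 and 0.753), with permutation adjusted p of at most 0.0002 for r and 0.0178 for rho. Without the 2 farthest libraries these r were 0.636, 0.575 and 0.702, and at 22 months alone 0.637, 0.304 and 0.446.

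Slc2a4 and Hk2, the entry genes, had relations to the later steps that moved with the scaling or with single libraries. In gastrocnemius Slc2a4 correlated with Hk2 (r = 0.667, rho = 0.675), Gapdh (0.651, 0.660), Pkm (0.644, 0.586) and Ldha (0.617, 0.504), with permutation adjusted p of 0.00469 to 0.0121 for r; the rho with Ldha did not pass (adjusted p = 0.0637). For the last 3 the r was 0.271, 0.267 and 0.223 when libraries were scaled by their totals, so their size depends on the scaling, whereas that with Hk2 was 0.536. In triceps the r of Slc2a4 with Hk2 was 0.216, but 0.631 without the 2 farthest libraries and 0.505 by library totals. In triceps Hk2 had negative r with Gapdh (-0.60), Pkm (-0.57) and Ldha (-0.58), with permutation adjusted p of 0.0121, 0.0130 and 0.0121 and rho of -0.36, -0.40 and -0.50, whose adjusted p did not pass. Without the 2 farthest libraries they were -0.39, -0.34 and -0.35, so they rest in part on those libraries. Correlations were read at a permutation adjusted p below 0.05, a looser threshold than the 0.01 of the edgeR calls. Of the 10 pairs among the 5 genes other than Ldhb, 7 passed for r in gastrocnemius, all positive. In triceps 6 passed, 3 positive and 3 negative. Differences in r between muscles were not tested.

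**Figure D4:**
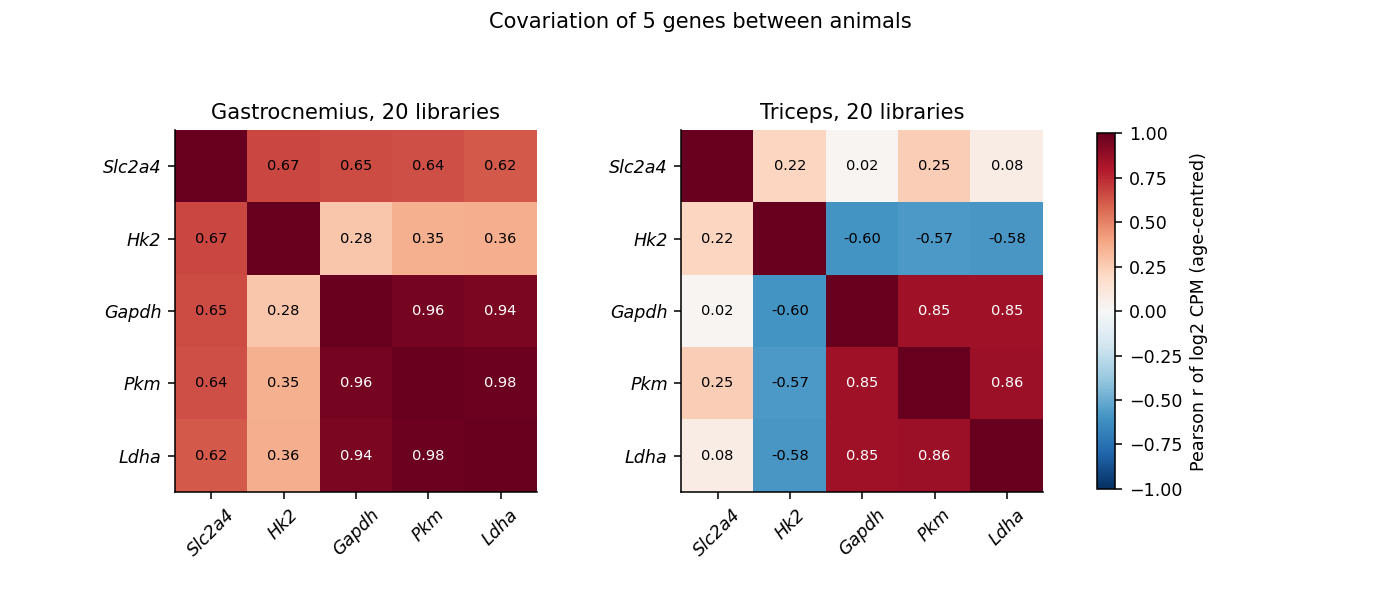
Pearson's r of log2 CPM, with the mean of each age removed, between 5 of the genes over the 20 libraries of gastrocnemius and of triceps (colour scale from -1 to 1). Gapdh, Pkm and Ldha form a block of 0.94 to 0.98 in gastrocnemius and 0.85 to 0.86 in triceps. Ldhb is left out because its libraries fall into clusters at 20 months.

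Since Ldhb libraries fell into clusters at 20 months, no correlation of it with the other 5 genes is given, and its libraries are described. Those pairs were computed and count among the 30 relations of the adjustment. In gastrocnemius at 20 months, the 3 libraries with little Ldhb, replicates 8, 9 and 10, had the 3 highest Ldha levels of the group (1731, 1609 and 1743 CPM). Those with most Ldhb were replicate 6 (593 CPM), with an Ldha of 1404 CPM, and replicate 4 (417 CPM), with the lowest Ldha of 859 CPM. At 22 months the lowest Ldhb in gastrocnemius, in replicate 5 (51.8 CPM), went with the highest Gapdh, Pkm and Ldha of the group (285, 1254 and 1617 CPM). Ldha was lowest in replicate 4 (444 CPM), which had 229 CPM of Ldhb. In triceps Ldhb spanned 26.8-fold at 22 months while Ldha spanned 1.41-fold, so most of the variation of the ratio there lay in Ldhb.

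**Figure D5:**
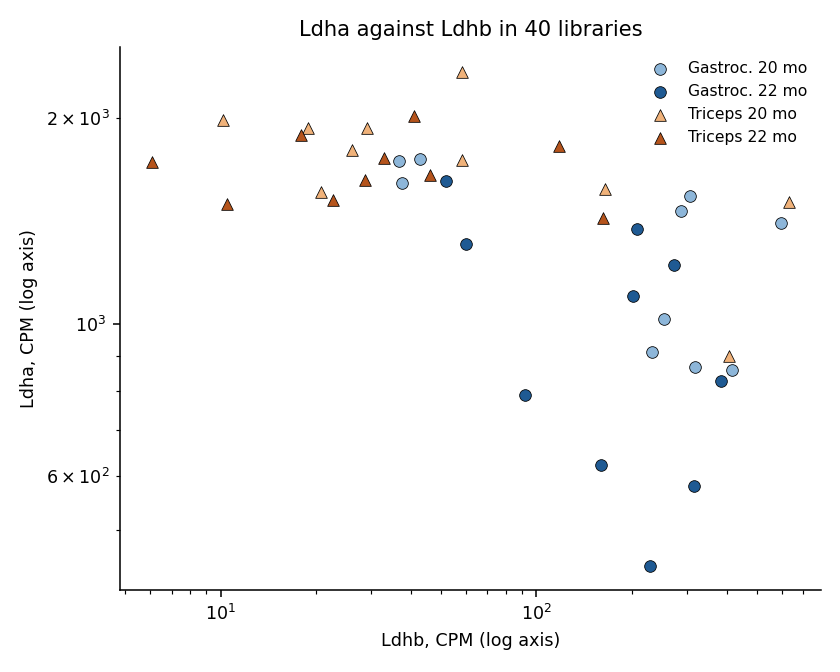
Ldha against Ldhb in CPM (both axes logarithmic) in the 40 libraries, with circles for gastrocnemius and triangles for triceps. Triceps libraries lie mostly at upper left, and gastrocnemius libraries mostly at lower right, apart from 3 circles of 20 months and 2 of 22 months that have at most 60.0 CPM of Ldhb.

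An animal with a high level in one muscle was not reliably high in the other. Over the 20 animals, r between muscles was 0.456 for Hk2 (rho = 0.456, permutation p = 0.0434 for r and 0.0445 for rho), or 0.304 and 0.312 after adjustment over 7 relations, and 0.352 without the 2 farthest animals. For Slc2a4, Gapdh, Pkm and Ldha r lay between -0.01 and 0.17 and rho between -0.07 and 0.14, and no permutation p was below 0.459. For Ldhb, whose libraries fell into clusters at 20 months, r was 0.12 and rho 0.25. The log2 ratio of Ldha to Ldhb gave an r of 0.095 and a rho of 0.22. Both had a permutation adjusted p of 0.901 for r and 0.818 for rho. Within ages r of Hk2 was 0.47 at 20 months and 0.38 at 22 months, and that of Slc2a4 was 0.51 and -0.19.

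Genes whose pattern over the 40 libraries was most like each member were sought by Pearson's r of log2 CPM among the 9751 genes that averaged 5 CPM or more. An r over 0.9 was reached by 132 genes for Ldha, 112 for Pkm, 45 for Gapdh, 19 for Ldhb, 5 for Slc2a4 and 0 for Hk2, whose closest gene had an r of 0.838. The gene most like Ldha was ENSRNOG00000009373 (r = 0.992), with medians of 781 and 572 CPM in gastrocnemius and 1052 and 999 CPM in triceps at 20 and 22 months, and the next was ENSRNOG00000058249 (r = 0.984 over all libraries). The gene most like Ldhb was ENSRNOG00000020955 (r = 0.976), with medians of 1437 and 1269 CPM in gastrocnemius and 199 and 120 CPM in triceps. These r share libraries, muscles and scaling, those with Ldhb also span its clusters of libraries, and all are a description of pattern. After the 4 group means were removed, 52 genes had an r over 0.9 with Ldha and 12 with Ldhb.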

How the data were processed

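Poly(A) RNA from 40 muscle libraries was prepared with TruSeq RNA v2. The authors deposited raw read counts per gene, made, per the submitters' processing notes, with CASAVA 1.8, STAR 2.3.0e and HTSeq on Rnor_6.0. For the annotation release and for reads matching several places, no setting is given in the sources used here. RefSeq lists 81 Gapdh, 30 Ldha and 19 Pkm pseudogene symbols, so reads shared with copies make these levels uncertain, and this was not tested. Libraries were unstranded per the study's methods, so antisense reads are not separated.

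Groups came from the labels. Genes with at least 1 CPM in 10 libraries of a comparison were fitted with edgeR 4.0.16 (R 4.3.3; TMM, quasi-likelihood, adjusted p below 0.01 over all genes tested, no block). Alternatives used limma 3.58.1 and DESeq2 1.42.0. Ratios and correlations used permutation tests (SciPy 1.17.1), read at an adjusted p below 0.05. log2 CPM used a prior count of 2. Code was tested on simulated data. Intervals are 95% and approximate (normal).

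Members, lists and tests were chosen with earlier results of these data known. Named genes were the members and, per member, the 2 with the highest r in either form, and only a few are printed. No table used here pairs other identifiers with symbols, so other glycolysis genes and markers of fibre and cell types were not analysed here. Both muscles of an animal share its number in the labels, which pairs them. Deviations from the group means correlated between both muscles at r = 0.158 (median), and above 0.1 in 12 of 20 animals. Different animals that share only a number across ages gave medians of 0.0805 in gastrocnemius and 0.1 in triceps. Of these, 5 of 10 lay above 0.1 in each muscle, so the pairing rests on the labels. No libraries of a group were duplicates (smallest chi-square per gene 10.6).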

Additional observations from a re-analysis of the deposited data

Results flagged for a closer look

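Among the sets of values examined for a sample far from the others (28 sets, 1 per gene or ratio and group of 10), 1 held such a sample. It was Hk2 in triceps at 22 months, where replicate 10 stood at 213 CPM and the next library, replicate 1, at 156 CPM, a gap of 0.499 of the whole range of the group. Chance gives such a flag in about 1 in 20 sets. The same library had the highest Ldhb of its group (163 CPM) and the lowest Gapdh (175 CPM), Pkm (929 CPM) and Ldha (1432 CPM). The cause was not tested.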

How the results depend on the processing

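Between muscles at 20 months the 0 members called became 2 with an adjusted p below 0.05 or with DESeq2 (Hk2 and Gapdh), 1 with the replicate block (Hk2), 1 in a single fit of all 40 libraries (Hk2) and 1 without replicates 7 and 10 (Gapdh), an alternative chosen after seeing the data. Leaving out 1 animal gave 0 to 1 (Gapdh without replicate 7). At 22 months the 4 members became 6 with the replicate block, with DESeq2 or at 0.05, 5 with limma-voom and 3 with no filter on low counts, where Pkm was lost. Leaving out 1 animal gave 1 to 5: without replicate 1, Slc2a4 alone, and without replicate 9, Slc2a4 and Ldha. The member counts by age and by the difference of age effects were 0 under every alternative run. Over all genes, calls at 20 months numbered 878 with DESeq2, 1203 at 0.05 and 206 to 525 without 1 animal, and calls at 22 months 2647 with the replicate block, 3189 with DESeq2, 2611 with limma-voom, 2514 with no filter and 4265 at 0.05. At 20 months they numbered 506 with the block, 694 in the single fit and 538 without replicates 7 and 10. The ratio's muscle difference at 20 months was -1.69 to -2.66 without 1 animal and passed only without replicate 10, and was -3.03 without replicates 7 and 10. With the replicate block (exact sign-flip permutation) its adjusted p was 0.127 at 20 months and 0.00977 at 22 months. The block changed no other call than those given.

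Several values that had not passed their tests changed sign. The ratio's age effect in gastrocnemius was 0.13 by medians, and in triceps -0.020 without replicates 7 and 10. Without those replicates the triceps age effect was -0.10 for Pkm and 0.016 for Ldhb, and the difference of age effects 0.013 for Gapdh and -0.46 for Ldhb. Scaling by library totals gave 0.018 for Hk2 with age in gastrocnemius, and 0.050 for Slc2a4 and 0.047 for Ldha in triceps. There Ldha was 0.013 with limma-voom and 0.0039 with the replicate block. Leaving out 1 library gave -0.043 to 0.026 for Slc2a4, -0.040 to 0.086 for Pkm and -0.095 to 0.033 for Ldha in triceps, and -0.31 to 0.024 for Gapdh in the difference. The cause was not tested. Between ages the animals share only a number (median r 0.0805 in gastrocnemius and 0.1 in triceps), and the block on it called 0 genes. The lowest count among the 6 genes was 92 reads, in a triceps library.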
